A study of Mus musculus with 84 samples.

Results

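Bone morphogenetic proteins (BMPs) are secreted ligands that bind type I and type II receptor kinases at the cell surface, which phosphorylate SMAD1 and SMAD5. The phosphorylated SMADs enter the nucleus with SMAD4 and raise the transcription of the Id genes, whose products bind E proteins and keep basic helix-loop-helix factors off DNA. In mouse embryonic stem cells, BMP signals acting through the Id genes are known to hold back differentiation in the presence of leukaemia inhibitory factor (LIF), and in fibroblasts the Id genes are also induced by serum.

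These 9 genes were followed through reprogramming of mouse embryonic fibroblasts (MEFs): the ligand Bmp4, the secreted BMP antagonist Grem1, the type I receptor Bmpr1a, the signal transducers Smad1 and Smad5, the inhibitory Smad6, and the targets Id1, Id2 and Id3. They were taken by symbol from the 18909 genes of the count table, and all 9 had a row. RNA of sorted or counted cell pools was sequenced by STRT, a method that tags the 5′ end of transcripts, in 30 libraries that form 10 groups of 3 biological replicates. The study compared reprogramming cells that carried a control vector (Cont) with cells that carried constitutively active Smad3 (+Sm3CA) on days 3, 6, 8 and 10, and set them beside the starting MEFs and embryonic stem cells (ESCs).

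All groups were of strain background 129. MEFs were wild type, counted and not sorted for a reporter, and grown in serum medium with FGF2 (5 ng/ml) and heparin (1 ng/ml). ESCs were the TNG-MKOS line, a single line that carries a GFP reporter in 1 Nanog allele and the doxycycline-driven MKOS cassette (c-Myc, Klf4, Oct4 and Sox2 with an mOrange reporter), grown in serum medium with LIF (100 U/ml). The reprogramming cells were MEFs of the same transgenic line, grown in the LIF medium with doxycycline (300 ng/ml) and vitamin C, infected with a retroviral vector for blue fluorescent protein (BFP, the Cont group) or Smad3CA, and sorted for mOrange. Smad3CA is a form of Smad3 whose C-terminal phosphorylation sites were changed to mimic phosphorylation. Cont and +Sm3CA cells therefore share the cassette, the doxycycline and a viral infection. MEFs differ from them in transgene, medium, infection and sorting together, and these cannot be told apart in a comparison with MEFs.

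Libraries held 1008596 to 2296059 reads, the 6 of day 10 held 1008596 to 1434427, from 2 wells a replicate in place of 3. Levels are reads divided by a size factor per library (normalised counts), and they are not scaled to gene length, so levels were compared between groups and not between genes. Smad3 reads, which can include the vector's, checked the labels: the 3 +Sm3CA libraries of day 3 held 184, 89.0 and 126 normalised counts and the 3 Cont libraries 18.7, 5.19 and 8.94, and by day 10 the values were 47.7, 32.8 and 44.3 against 14.8, 21.5 and 25.4, again without overlap but no longer past the test (adjusted p = 0.12). Summed levels of 12 fibroblast markers ran from 4595 to 6307 in MEFs and from 3.86 to 7.23 in ESCs, and those of 12 pluripotency markers that lie outside the cassette from 8.89 to 14.1 in MEFs and from 31387 to 55366 in ESCs. Replicate 2 of the ESCs had the fewest genes detected, 10935, and stood apart for several of the 9 genes. In cell pools, fewer cells of a type and less RNA per cell cannot be told apart.

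The genes lie on 7 chromosomes of GRCm38 (GENCODE vM21). Id1 (ENSMUSG00000042745) is at chr2:152736251-152737410 on the plus strand, Id2 at chr12:25093799-25097140 on the minus strand and Id3 at chr4:136143497-136145755 on the plus strand. Bmp4 is at chr14:46383520-46390669, Grem1 at chr2:113746164-113758646, Bmpr1a at chr14:34410734-34503341, Smad1 at chr8:79338395-79399518 and Smad6 at chr9:63953076-64022059, all on the minus strand, and Smad5 at chr13:56703010-56742377 on the plus strand. Genes annotated on the opposite strand overlap Bmp4 (Gm15217 and Gm15222) and Bmpr1a (Gm17110), and whether the counting used strand is not stated in the sources used here.

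Promoter windows of 300 bases, from 250 before to 50 after the annotated start, were on hand for 8 of the 9 genes (RefSeq, GRCm38.p6; Id1 had none in the table). Stretches of 3 of them are shown because they belong to the ligand, its antagonist and an Id gene, each of which the values below turn on. Each is written 5′ to 3′ on the gene's own strand and stops before the next annotated exon downstream, and capitals mark a match, on either strand, to 1 of 5 short motifs. The Id2 stretch lies in an intron of the longest annotated Id2 transcript, upstream of the start of a shorter one. SMAD proteins are known to bind GGCGCC, the related motif GGAGCC, and the shorter GTCTG. The E-box, the element of basic helix-loop-helix factors, was searched as CACGTG and in the second form CAGCTG.
Bmp4, chr14:46390670-46390919, minus strand: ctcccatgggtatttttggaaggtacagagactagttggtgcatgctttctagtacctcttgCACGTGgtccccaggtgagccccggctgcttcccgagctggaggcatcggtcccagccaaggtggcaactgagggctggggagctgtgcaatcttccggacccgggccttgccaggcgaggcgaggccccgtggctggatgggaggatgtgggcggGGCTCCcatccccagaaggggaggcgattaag
Grem1, chr2:113758649-113758898, minus strand: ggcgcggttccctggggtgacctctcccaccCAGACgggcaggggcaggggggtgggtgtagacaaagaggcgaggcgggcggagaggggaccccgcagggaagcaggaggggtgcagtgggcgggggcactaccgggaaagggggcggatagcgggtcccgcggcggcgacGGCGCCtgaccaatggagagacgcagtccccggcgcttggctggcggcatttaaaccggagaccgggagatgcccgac
Id2, chr12:25096254-25096342, minus strand: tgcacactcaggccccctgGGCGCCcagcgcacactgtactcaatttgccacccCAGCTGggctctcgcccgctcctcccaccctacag

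Such matches are common and are given as a description. Of 32851 mouse windows of the same length, 11.9% held GGCGCC, 49.6% GTCTG, 30.8% GGAGCC, 7.15% CACGTG and 16.3% CAGCTG. The Id3 window, which lies inside an annotated exon of Id3 and is not printed, held GTCTG 167 and 68 bases before the start and GGAGCC 187 bases before it. The longer palindrome GTCTAGAC, also known as bound by SMADs, was in 0.213% of all windows and, of the 8 genes with a window, in that of Smad6 alone, 4 bases before the start. None of the 6 motifs was found in the Smad1 window. No binding or chromatin data are part of these files.

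Id3 had its highest level in MEFs, and it was lower in every other group. The 3 MEF libraries held 1765, 1879 and 1238 normalised counts of Id3, the Cont libraries of day 3 held 364, 475 and 392, and the +Sm3CA libraries of day 3 held 303, 477 and 335. No day 3 library reached the lowest MEF library, and Cont and +Sm3CA overlapped. Marker sums were also far lower on day 3 than in MEFs: the mean sum of 12 fibroblast markers was 5279 normalised counts in MEFs, 1296 in Cont and 1488 in +Sm3CA, and that of 5 smooth muscle markers 30614, 1079 and 1214. Their part in the values of Id3 and of the other genes against MEFs was not tested. The log2 fold change against MEFs was -1.87 ± 0.24 (SE; adjusted p = 1.95e-08) in Cont and -2.02 ± 0.24 (adjusted p = 3.74e-09) in +Sm3CA, from a quasi-likelihood fit in edgeR with p adjusted by Benjamini-Hochberg over all genes tested, as for every adjusted p here.

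Neither Id1 nor Id2 passed that comparison. Id1 was 118, 128 and 143 normalised counts in MEFs, 134, 135 and 167 in Cont on day 3 and 99.0, 137 and 146 in +Sm3CA on day 3, and the groups overlapped. Its log2 fold change was 0.28 ± 0.27 in Cont (adjusted p = 0.411) and 0.08 ± 0.27 in +Sm3CA (adjusted p = 0.831). Id2 gave 374, 268 and 252 in MEFs against 388, 383 and 353 in Cont and 328, 458 and 353 in +Sm3CA, a log2 fold change of 0.45 ± 0.23 (adjusted p = 0.112) and 0.46 ± 0.23 (adjusted p = 0.101).

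Upstream of the Id genes, the ligand, its antagonist, the receptor and 1 of the transducers were all lower on day 3 than in MEFs. Bmp4 was 40.0, 23.9 and 50.1 normalised counts in MEFs and 9.81, 2.59 and 4.06 in Cont on day 3, with no overlap, a log2 fold change of -2.61 ± 0.59 (adjusted p = 0.000337). Grem1, which binds and blocks BMP2 and BMP4, was 36.7, 25.0 and 81.2 in MEFs, with 1 library far above the other two, and 3.57, 9.08 and 4.06 in Cont on day 3, a change of -3.04 ± 0.67 (adjusted p = 0.000276). These low values rest on few reads, 18 of Bmp4 and 16 of Grem1 in the 3 Cont libraries together.

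Bmpr1a, the type I receptor that phosphorylates SMAD1 and SMAD5, was 82.2, 82.5 and 103 normalised counts in MEFs and 38.3, 42.8 and 23.6 in Cont on day 3, and it fell by 1.26 ± 0.30 on the log2 scale (adjusted p = 0.000575). Smad1 went from 54.4, 53.2 and 44.9 to 25.0, 6.49 and 10.6 (-1.69 ± 0.45, adjusted p = 0.00189). Smad5, its close relative, was 41.1, 40.2 and 32.8 in MEFs and 21.4, 13.0 and 32.5 on day 3, and at -0.60 ± 0.36 (adjusted p = 0.172) it did not pass the test (0.0457 without Cont replicate 3 of day 3). Smad6, an inhibitor of BMP signalling that is itself a BMP target, had 4, 5 and 18 reads in MEFs and 0 to 7 in any library after that, and it was under the filter on low counts in every comparison.

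Against MEFs, the same 5 genes (Id3, Bmp4, Grem1, Bmpr1a and Smad1) passed in +Sm3CA on day 3. The changes there were -3.34 ± 0.63 for Bmp4 (adjusted p = 2.89e-05), -2.24 ± 0.62 for Grem1 (adjusted p = 0.00300), -1.47 ± 0.30 for Bmpr1a (adjusted p = 8.77e-05) and -2.29 ± 0.47 for Smad1 (adjusted p = 9.17e-05). The Grem1 value rests on the high MEF library, and without it the adjusted p was 0.0766. Both comparisons share the MEF libraries, so that they are not independent. Of the 8 genes tested, 5 were called lower and 0 higher in each. Among all 10979 genes tested, 20.9% were lower and 22.6% higher in Cont on day 3, and 20.7% lower and 22.4% higher in +Sm3CA. Bmp4 and Grem1 are low in most groups and passed the filter through the groups where they are high.

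**Figure D1:**
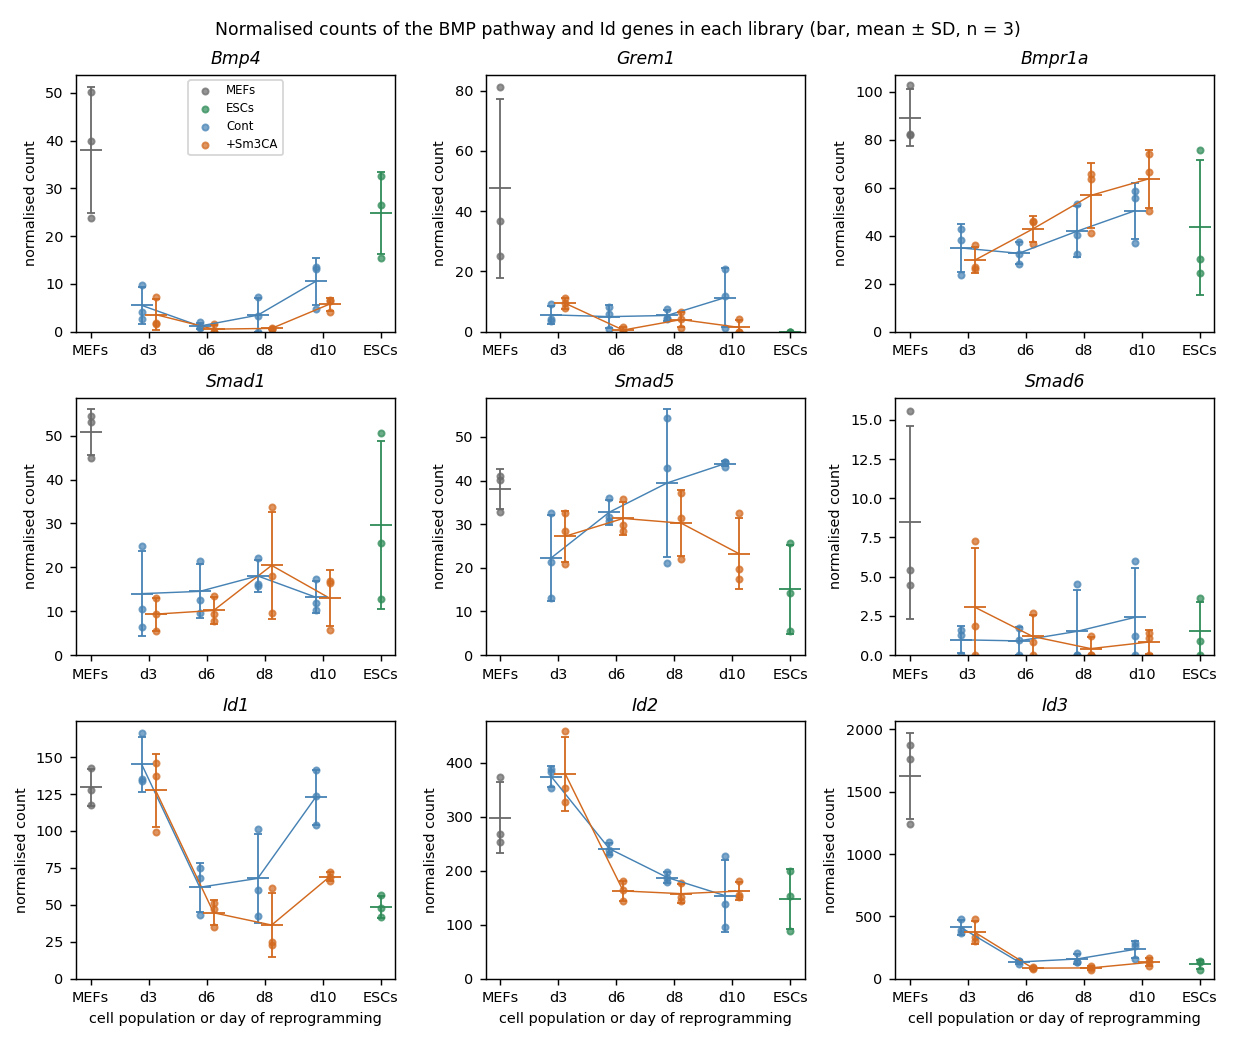
Normalised counts of the 9 genes (y axis, linear and starting at 0) in each library (points) of MEFs, Cont and +Sm3CA on days 3, 6, 8 and 10, and ESCs; horizontal marks and bars are the mean ± SD of 3 libraries, and lines join the means of a series. Id3 drops from 1627 in MEFs to 410 in Cont on day 3, Id1 and Id2 drop between days 3 and 6, and the Cont means of Id3 and Id1 lie above those of +Sm3CA on every day.

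Between days 3 and 6 all 3 Id genes fell in both series. Id1 in Cont went to 67.8, 43.1 and 74.7 normalised counts on day 6, below every library of day 3, a log2 fold change of -1.22 ± 0.27 (adjusted p = 0.00247). In +Sm3CA it went to 35.1, 47.4 and 51.3, a change of -1.50 ± 0.29 (adjusted p = 0.000228). The replicates are paired over days within a series. Neither series overlapped its own day 3 libraries, so that Id1 was bound to be lower on day 6 in every pair.

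Id2 on day 6 was 239, 231 and 253 normalised counts in Cont and 164, 180 and 143 in +Sm3CA, and neither group overlapped its own day 3 libraries. The change was -0.64 ± 0.19 in Cont (adjusted p = 0.0254) and -1.20 ± 0.19 in +Sm3CA (adjusted p = 2.27e-05). The Cont call was lost in 4 of the 6 fits that left out a library, with adjusted p from 0.0801 to 0.107 in those fits, and with all 30 libraries in the fit (adjusted p = 0.111). Id3 fell again, to 139, 119 and 141 in Cont (-1.62 ± 0.21, adjusted p = 1.45e-06) and to 75.2, 90.8 and 85.0 in +Sm3CA (-2.13 ± 0.22, adjusted p = 7.52e-09).

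Grem1 also fell in +Sm3CA, where its reads went from 10, 12 and 9 on day 3 to 0, 2 and 0 on day 6 (adjusted p = 0.0105; 0.0723 without replicate 1 of day 6). From the pooled reads, the day 6 level was 0.0674 of the day 3 level, with an exact 95% counting interval from 0.00781 to 0.265. In Cont its reads were 4, 7 and 5 and then 12, 6 and 1. Of the 7 genes tested, 3 were called lower in Cont and 4 in +Sm3CA, and 0 were called higher. Of all 10237 genes tested, 4.21% were lower and 4.91% higher in Cont, and 8.97% lower and 9.62% higher in +Sm3CA.

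The receptor and the transducers did not pass over that step in either series. The log2 fold change of Bmpr1a from day 3 to day 6 was -0.07 ± 0.27 in Cont and 0.56 ± 0.27 in +Sm3CA (adjusted p = 0.911 and 0.155), and that of Smad1 was 0.04 ± 0.47 and 0.08 ± 0.53 (adjusted p = 0.975 and 0.946). Smad5 gave 0.51 ± 0.32 and 0.22 ± 0.32 (adjusted p = 0.351 and 0.680). Bmp4 was under the filter in this fit, and its reads on day 6 were 1, 2 and 1 in Cont and 0, 2 and 0 in +Sm3CA.

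From day 6 to day 8 none of the 7 genes tested passed, in either series. The unadjusted p was under 0.05 for 0 of the 7 in Cont and for 2 in +Sm3CA (Smad1 and Grem1), and DESeq2 also called 0 in each. Among all 10237 genes it was under 0.05 for 1333 in Cont and 2198 in +Sm3CA. Without +Sm3CA replicate 3 of day 8, Id1 passed there (-0.92, adjusted p = 0.0480). Of all genes tested, 1.69% were called in Cont, and 2.98% were higher and 3.70% lower in +Sm3CA.

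From day 8 to day 10, Id1 was higher on the later day in every pair of both series. In Cont it went from 60.0, 42.2 and 101 normalised counts to 123, 104 and 141, and in +Sm3CA from 22.9, 24.5 and 61.4 to 65.9, 72.1 and 69.0. The days did not overlap in either series, so that every pair was bound to be higher. The log2 fold change was 0.82 ± 0.27 in Cont (adjusted p = 0.111) and 0.97 ± 0.30 in +Sm3CA (adjusted p = 0.0519), so that neither passed. With the replicate as a block, the pairing that the series' design states, both passed (adjusted p = 0.0221 and 0.0117), as they did without replicate 3 of day 8, the highest library of that day in each series (adjusted p = 0.0152 and 0.00117).

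Id3 moved the same way over these days, by 0.56 ± 0.21 in Cont and 0.60 ± 0.22 in +Sm3CA, and did not pass (adjusted p = 0.169 and 0.112). Its value was higher on day 10 in 3 of 3 pairs in each series, and in Cont it passed without replicate 3 of day 8 (adjusted p = 0.0495) or replicate 1 of day 10 (adjusted p = 0.0445). Id2 gave -0.27 ± 0.20 and 0.05 ± 0.20 (adjusted p = 0.573 and 0.917). Without the block 0 of 7 genes passed in either series and 2 in each (Id1 and Id3) had an unadjusted p under 0.05, and DESeq2 called 0. Among all 10237 genes, 1474 in Cont and 1961 in +Sm3CA had an unadjusted p under 0.05. Of all genes, 1.58% were higher and 0.821% lower in Cont, and 2.43% higher and 2.42% lower in +Sm3CA. Bmp4 reads went from 1, 1 and 1 on day 8 to 3, 6 and 5 on day 10 in +Sm3CA, a pooled ratio of 8.74 with an exact 95% counting interval from 2.44 to 47.4, without a test across libraries. In Cont they went from 0, 3 and 12 to 11, 4 and 14. The normalised level of Bmp4 was higher on day 10 in 3 of 3 pairs in each series.

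The central comparison of the study, +Sm3CA against Cont on the same day, called Id3 on days 8 and 10 and none of the other genes tested. On day 3 the log2 fold change of +Sm3CA over Cont was -0.20 ± 0.26 for Id1, 0.01 ± 0.19 for Id2 and -0.14 ± 0.20 for Id3, with 95% intervals of -0.71 to 0.31, -0.35 to 0.38 and -0.54 to 0.25. On that day 0 of 7 genes passed, 0 had an unadjusted p under 0.05 and DESeq2 called 0, and no member had all +Sm3CA libraries below all Cont libraries. Among all genes tested 0.0195% were called, and 5.92% had all 3 +Sm3CA libraries below all 3 Cont libraries. An unadjusted p under 0.05 was found for 523 of the 10237 genes.

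On day 6, Id2 and Id3 were lower in every +Sm3CA library than in any Cont library. Id3 was 75.2, 90.8 and 85.0 normalised counts against 139, 119 and 141, a log2 fold change of -0.66 ± 0.22, and Id2 was 164, 180 and 143 against 239, 231 and 253, a change of -0.55 ± 0.19. Neither passed the adjustment over all genes (adjusted p = 0.954 and 0.992), and their unadjusted p were 0.00578 and 0.00702. Only 0.00977% of all genes were called on this day, while 6.41% lay wholly below Cont. Counting Grem1, 3 of the 7 genes had an unadjusted p under 0.05, beside 426 of all 10237 genes, and DESeq2 called 0 of the 7. On the same day the sums of 7 immune markers also lay wholly below Cont, at 798, 585 and 1014 against 1440, 1981 and 1481, as did those of 7 epithelial markers, at 801, 811 and 800 against 881, 888 and 1036, while fibroblast sums (964 to 1194 against 1120 to 1327) overlapped. Their part in the Id2 and Id3 values was not tested.

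On day 8, Id3 was lower in +Sm3CA and passed the test. Its level was 101, 70.5 and 84.8 normalised counts against 130, 133 and 208 in Cont, with no overlap, and the log2 fold change was -0.88 ± 0.22 (adjusted p = 0.0356). Id2 again lay wholly below Cont, at 151, 144 and 177 against 186, 178 and 198, with a small change of -0.24 ± 0.19 (adjusted p = 0.595). Id1 was 22.9, 24.5 and 61.4 against 60.0, 42.2 and 101, groups that overlapped, and gave -0.97 ± 0.29 (adjusted p = 0.0850); without +Sm3CA replicate 3, its highest library, it passed (-1.55, adjusted p = 0.00180).

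Of the 7 genes tested on day 8, 1 was called lower and 0 higher, where 0.654% of all genes were lower and 0.381% higher, and 8.35% had all +Sm3CA libraries below all Cont libraries. The Id3 call was lost without Cont replicate 3, the highest library (adjusted p = 0.182), without +Sm3CA replicate 2, the lowest (adjusted p = 0.191), and with all 30 libraries in the fit (adjusted p = 0.119). The sign was negative in each.

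On day 10, Id3 was 161, 130 and 97.7 normalised counts in +Sm3CA and 158, 286 and 259 in Cont. The lowest Cont library lay just under the highest +Sm3CA library, so the groups overlapped, and the log2 fold change was -0.84 ± 0.22 (adjusted p = 0.0194). Id1 did not overlap, at 65.9, 72.1 and 69.0 against 123, 104 and 141, yet its change of -0.82 ± 0.28 did not pass (adjusted p = 0.102). Smad5 did not overlap either, at 19.6, 17.5 and 32.5 against 43.2, 44.2 and 44.3, and gave -0.91 ± 0.33 (adjusted p = 0.125).

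Grem1 reads on day 10 were 3, 0 and 0 in +Sm3CA and 1, 10 and 22 in Cont. The pooled ratio of +Sm3CA to Cont was 0.103, with an exact 95% counting interval from 0.0202 to 0.327, and the test across libraries gave an adjusted p of 0.0736, and of 0.0206 without Cont replicate 1 and 0.0280 without +Sm3CA replicate 1. Id2 overlapped Cont again, at 154, 181 and 151 against 96.3, 137 and 227, a difference of 0.08 ± 0.20 with a 95% interval of -0.31 to 0.48. Bmpr1a was 50.5, 74.3 and 66.4 against 37.0, 58.5 and 55.6, and Smad1 was 5.61, 16.4 and 16.9 against 17.3, 11.9 and 10.4, both without passing (adjusted p = 0.544 and 0.988). Of the 7 genes, 1 was called lower and 0 higher, against 2.74% lower and 0.830% higher of all genes. For 2 of the 7 (Id1 and Smad5) the +Sm3CA libraries lay below all Cont libraries, against 11.9% of all genes.

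The day 10 call of Id3 was lost in 4 of the 6 fits that left out a library (adjusted p from 0.0861 to 0.177 in those fits) and with all 30 libraries in the fit (adjusted p = 0.0739). The test of whether the gap between +Sm3CA and Cont had changed from day 3 to day 10 gave -0.70 ± 0.30 for Id3 (adjusted p = 0.310), -0.62 ± 0.38 for Id1 (adjusted p = 0.554) and 0.07 ± 0.27 for Id2 (adjusted p = 0.954), and called 0 of the 7, with 3 at an unadjusted p under 0.05 (Id3, Smad5 and Grem1) and 0 by DESeq2. Grem1 passed it without Cont replicate 1 of day 10 (adjusted p = 0.0481). Of all genes, 0.107% were called higher and 0.899% lower by that test, and 1236 of 10237 had an unadjusted p under 0.05.

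**Figure D2:**
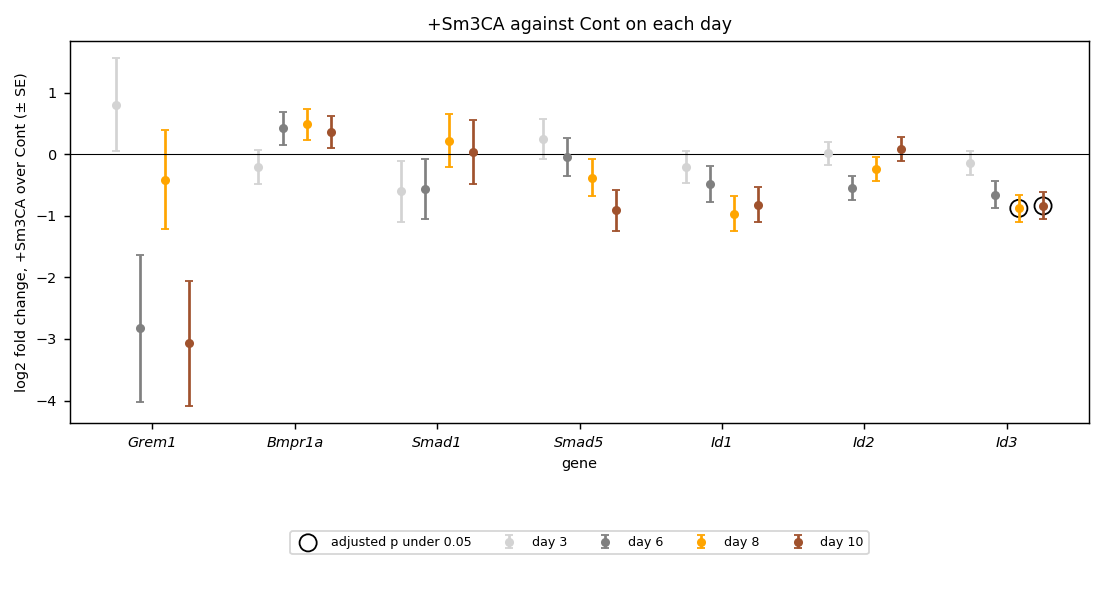
Log2 fold change of +Sm3CA over Cont (y axis, with its SE) for the 7 genes that passed the filter (x axis) on each day, from the edgeR fit; black rings mark an adjusted p under 0.05. Only the Id3 values of day 8 (-0.88) and day 10 (-0.84) carry a ring, and the wide bars of Grem1 on days 6 and 10 rest on 2 and 3 +Sm3CA reads.

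On day 10 the library lowest in Id3 in each group was also lowest in fibroblast markers. For immune markers this held in Cont and not in +Sm3CA. Replicate 1 of Cont, the Cont library lowest in Id3 (158), also had the lowest sum of 12 fibroblast markers of its group, 1362 normalised counts, against 2724 and 2757 in replicates 2 and 3, where Id3 was 286 and 259. In +Sm3CA on day 10 the fibroblast sums were 1664, 1575 and 1302, beside Id3 at 161, 130 and 97.7.

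The 7 macrophage and other immune markers were also lowest in that Cont library, with a sum of 611 in replicate 1, 2632 in replicate 2 and 2493 in replicate 3, and +Sm3CA had 935, 855 and 1569. In +Sm3CA the library highest in immune markers, replicate 3, was the lowest in Id3 (97.7). On day 8 the immune sums were 2524, 1562 and 1522 in Cont and 1162, 1258 and 2377 in +Sm3CA, and the fibroblast sums were 1394, 1579 and 1812 in Cont and 1873, 2114 and 1587 in +Sm3CA. The groups overlapped in both lists on that day. All 7 immune markers and all 12 fibroblast markers had reads in both groups on days 8 and 10. The pluripotency sums on day 10 were 838, 565 and 1242 in Cont and 1461, 1579 and 2727 in +Sm3CA, with no overlap. The 6 endothelial markers, of a cell type known for high Id1 and Id3, summed to 10.4 to 24.5 in the 6 libraries of day 10, with Cdh5 and Emcn at 0 reads. The 5 smooth muscle markers separated the groups, as Id3 did on day 8, with sums of 541, 1111 and 720 in Cont and 247, 324 and 366 in +Sm3CA on that day, and of 863, 1093 and 1054 against 255, 213 and 191 on day 10; Myh11 was at 0 reads in +Sm3CA on day 8 and Des on day 10. On day 8 the 7 epithelial markers summed to 774, 735 and 697 in Cont and 823, 782 and 873 in +Sm3CA, and the 6 neural markers to 1900, 645 and 636 and to 291, 237 and 380, also without overlap. Both lists overlapped on day 10. The part of any of these lists in the Id3 values was not tested.

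**Figure D3:**
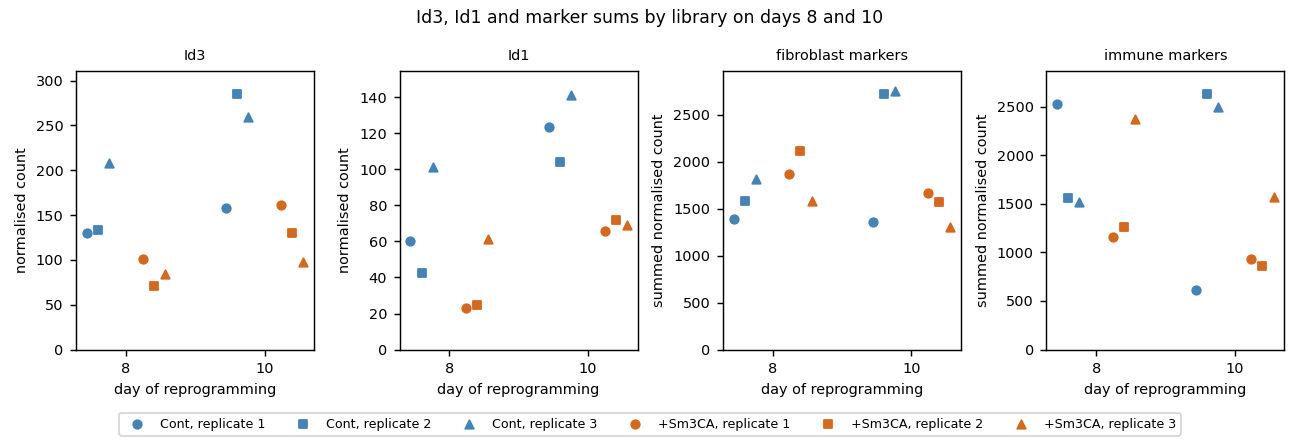
Normalised counts of Id3 and Id1 and the summed normalised counts of 12 fibroblast and 7 immune markers (y axes, starting at 0) on days 8 and 10 (x axes), with a point for each library and a marker shape for each replicate. On day 10 Cont replicate 1 is the low Cont library for Id3 (158), the fibroblast sum (1362) and the immune sum (611), and it is not the low one for Id1 (123).

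ESCs were compared with day 10 of each series. The +Sm3CA means of Id3 were below that of ESCs (115) on days 6 and 8 (83.7 and 85.3) and above it on day 10 (130). Nearness to the ESC level is therefore not read as progress to the pluripotent state. ESCs held 47.5, 41.5 and 56.6 normalised counts of Id1, 200, 88.5 and 153 of Id2 and 140, 72.3 and 132 of Id3. Against Cont on day 10, Id1 was lower in ESCs (-1.32 ± 0.30, adjusted p = 0.000255), as was Id3 (-0.99 ± 0.25, adjusted p = 0.00108), neither with overlap. Against +Sm3CA on day 10, the differences were -0.52 ± 0.31 for Id1 (adjusted p = 0.168), whose ESC libraries lay below all +Sm3CA libraries, and -0.16 ± 0.26 for Id3 (adjusted p = 0.631, 95% interval -0.67 to 0.34). For Id2 they were -0.03 ± 0.24 and -0.13 ± 0.25 (adjusted p = 0.938 and 0.693). The ESC libraries are shared by both comparisons, the median of all genes in them was -0.15, and the test of +Sm3CA against Cont itself is the one given above.

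Bmp4 was higher in ESCs, at 26.5, 32.5 and 15.4 normalised counts, than in Cont (13.6, 4.78 and 13.2) or +Sm3CA (4.21, 6.55 and 6.51) on day 10, with no overlap. It passed against +Sm3CA (2.03 ± 0.63, adjusted p = 0.00703) and not against Cont (1.21 ± 0.57, adjusted p = 0.0718; 0.0402 without ESC replicate 3). Smad5 was 25.6, 5.42 and 14.1 in ESCs and lower than in Cont (-1.39 ± 0.38, adjusted p = 0.00204). Smad1, at 25.6, 50.6 and 12.9, overlapped Cont and was called higher at the threshold (1.12 ± 0.49, adjusted p = 0.0493), a call lost without ESC replicate 2 (adjusted p = 0.286), without ESC replicate 1 (0.0641), without Cont replicate 2 (0.104) and without Cont replicate 3 (0.141), with DESeq2 size factors (0.0501) and with only the 6 libraries compared (0.119). Bmpr1a, at 30.2, 75.9 and 24.4 in ESCs, passed against neither series (adjusted p = 0.452 and 0.0745), and without ESC replicate 2, its highest, it was lower than in Cont (adjusted p = 0.0350) and in +Sm3CA (adjusted p = 0.00198). Against +Sm3CA, Smad1 passed without ESC replicate 3 (adjusted p = 0.0181) and Smad5 without ESC replicate 1 (adjusted p = 0.0480).

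Grem1 had 0 reads in all 3 ESC libraries. With a floor of 3 reads per library it was at least 2.82-fold lower in ESCs than in Cont on day 10 and at least 11.9-fold lower than in MEFs (adjusted p = 0.000366 and 2.73e-07), and +Sm3CA on day 10 was itself at or under the floor. Against Cont, 4 of 8 genes were called lower and 1 higher in ESCs, where 30.3% of all genes were lower and 21.5% higher. Against +Sm3CA, 0 of 8 were called lower and 1 higher, where 27.2% of all genes were lower and 18.6% higher.

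Between the endpoints, ESCs against MEFs, 6 of the 8 genes tested were lower in ESCs and 0 higher, beside 30.5% of all genes lower and 29.1% higher. Id3 was 14.2-fold lower in mean level (-3.69 ± 0.26, adjusted p = 6.57e-16), Id1 gave -1.31 ± 0.30 (adjusted p = 0.000195) and Id2 -0.88 ± 0.24 (adjusted p = 0.00159). Bmpr1a (-1.03 ± 0.30, adjusted p = 0.00311) and Smad5 (-1.09 ± 0.38, adjusted p = 0.0126) were also lower, the latter not without ESC replicate 2 (adjusted p = 0.0805). Bmp4 (-0.54 ± 0.52, adjusted p = 0.375) and Smad1 (-0.74 ± 0.43, adjusted p = 0.135) did not pass, although both had been lower than MEFs on day 3, and Smad1 was lower without ESC replicate 2 (adjusted p = 0.0210). The median log2 fold change of the 8 was -1.06, unchanged by the bound set for Grem1, and that of all genes tested was 0.00.

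Over the 10 groups, Id3 was ordered MEFs, Cont day 3, +Sm3CA day 3, Cont day 10, Cont day 8, Cont day 6, +Sm3CA day 10, ESCs, +Sm3CA day 8 and +Sm3CA day 6, and neighbours were separated only after MEFs and after +Sm3CA day 3. Id1 was highest in Cont day 3, MEFs, +Sm3CA day 3 and Cont day 10, in that order, and +Sm3CA day 10 came next. Neighbours were separated only between Cont day 10 and +Sm3CA day 10. The groups above and below that step still overlapped, as Cont day 8 reached 101 and +Sm3CA day 3 went down to 99.0. Id2 separated only between Cont day 6 and Cont day 8. Of the genes with a mean of at least 20 normalised counts in some group, those with the most similar group means to Id3 (Pearson correlation of log2 of the level + 1 over 10 groups, a description) were Abhd4 (0.991), Ccs (0.986) and Pttg1ip (0.981), and those for Id1 were Ttll1 (0.900), Cyp4f16 (0.888) and Gstp1 (0.882). For Id2 they were Eno3 (0.957), Pycrl (0.955) and Drg2 (0.954). Among the 9 genes, the group means of Id3 and Id1 correlated at 0.835, Id3 and Id2 at 0.714, and Smad1 and Smad5 at -0.03.

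A wider list of 49 BMP pathway genes, of which 48 had a row, was taken by role. In ESCs against MEFs, 21 of its 30 tested genes were lower and 2 higher, and its median log2 fold change was -2.31, beside 30.5% of all genes lower, 29.1% higher and a median of 0.00. Of the 15 secreted antagonists and modulators 9 were tested, and 9 of 9 were lower: Fst, which traps activins and some BMPs, by -5.56 ± 0.39 (adjusted p = 4.39e-16), Bmp1, a protease that cleaves procollagens and the BMP antagonist chordin, by -6.18 ± 0.53 (adjusted p = 9.88e-14), and Bmper, a BMP-binding modulator, by -6.08 ± 0.90 (adjusted p = 5.54e-08). Of the intracellular and membrane inhibitors 4 of 4 were lower (Smad7, Smurf1, Smurf2 and Bambi), but leaving out 1 library ended the call of Bambi in 5 of 6 fits and those of Smad7 and Smurf1 in 3 each (adjusted p up to 0.406), and that of Smurf1 was also lost with only the 6 libraries compared (adjusted p = 0.108). Of the receptors and co-receptors 4 of 8 were lower (Bmpr1b, Bmpr2, Acvr1 and Rgma) and 1 was higher, the type II receptor gene Acvr2b, with 0 reads in all MEF libraries and 22, 15 and 19 in ESCs. Of the 3 E proteins that Id proteins bind, Tcf4 and Tcf12 were lower and Tcf3 was higher, a call lost in 3 of 6 fits that left out a library (adjusted p up to 0.391) and with only the 6 libraries compared (adjusted p = 0.117).

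By day 3 the 9 tested antagonists and modulators, a mixed class that holds the protease gene Bmp1, were already lower. In Cont against MEFs, 16 of the 30 genes were lower and 2 higher, and in +Sm3CA 15 were lower and 3 higher, beside 20.9% of all genes lower and 22.6% higher in Cont and 20.7% and 22.4% in +Sm3CA. Of the antagonists and modulators 9 of 9 were lower in each, with the same limit set by the filter. Leaving out 1 library ended the call of Bmper in 3 of 6 fits in Cont (adjusted p up to 0.103) and in 2 of 6 in +Sm3CA (up to 0.116), and that of Nbl1 in 4 of 6 in +Sm3CA (up to 0.142), where it was also lost without the filter on low counts (adjusted p = 0.0662). Fstl1, a secreted follistatin-like glycoprotein, fell by 2.80 ± 0.26 on the log2 scale in Cont (adjusted p = 5.59e-12) and by 2.68 ± 0.26 in +Sm3CA (adjusted p = 1.70e-11), and Smad7, an inhibitory Smad of the TGF-β and BMP pathways, changed by -2.26 ± 0.41 (adjusted p = 1.68e-05) and -2.57 ± 0.42 (adjusted p = 2.83e-06). The ligand gene Bmp8b and the receptor gene Acvr2b were higher in both, joined in +Sm3CA by Smad4, the SMAD shared by the TGF-β and BMP pathways (0.58 ± 0.23, adjusted p = 0.0409). Without +Sm3CA replicate 3 of day 3, the Acvr2b call in +Sm3CA was lost (adjusted p = 0.0611). The Smad4 call was lost in 3 of 6 fits that left out a library (adjusted p up to 0.343) and with DESeq2 size factors (0.10), without the filter (0.0789), with only the 6 libraries compared (0.0598), with the replicate block (0.0514) and by DESeq2 (0.0825). Bmp8b went from 1, 2 and 1 reads in MEFs to 32, 20 and 32 in Cont and 34, 16 and 48 in +Sm3CA on day 3.

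After day 3 the calls in the wider list are set beside the shares of all genes. From day 3 to day 6, 4.91% of all genes were higher and 4.21% lower in Cont, and 9.62% and 8.97% in +Sm3CA. From day 6 to day 8, 1.69% were called in Cont, and in +Sm3CA 2.98% were higher and 3.70% lower. From day 8 to day 10, 1.58% were higher and 0.821% lower in Cont, and 2.43% and 2.42% in +Sm3CA. In Cont, 2348 of all 10237 genes had an unadjusted p under 0.05 from day 3 to day 6, and 1333 from day 6 to day 8. Of 24 tested genes, 0 were called from day 3 to day 6 in Cont (4 had an unadjusted p under 0.05, Rgma, Smurf1, Fstl1 and Bmper, and DESeq2 called 0), and in +Sm3CA 3 fell, Bmp1 (-1.87 ± 0.36, adjusted p = 0.000278), Fstl1 (-0.82 ± 0.24, adjusted p = 0.0147) and Nbl1 (-1.74 ± 0.56, adjusted p = 0.0236). From day 6 to day 8, 0 passed in Cont, where 5 had an unadjusted p under 0.05 (Bmp7, Fstl1, Nbl1, Bmp1 and Tcf3) and DESeq2 called 0, and Bmp1 rose in +Sm3CA (1.40 ± 0.36, adjusted p = 0.0136). From day 8 to day 10, Smad9 fell in Cont (adjusted p = 0.0457; 0.0544 with the replicate as a block), and Fst (-1.08 ± 0.24, adjusted p = 0.00602) and Neo1, a receptor of netrins and repulsive guidance molecules (-1.16 ± 0.33, adjusted p = 0.0350), fell in +Sm3CA. Leaving out 1 library ended the Smad9 call in 5 of 6 fits, that of Neo1 in 4, those of Nbl1 and of Bmp1 from day 6 to day 8 in 3 each, that of Fstl1 from day 3 to day 6 in 2 and that of Fst in 1.

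On day 10, 3 of the 24 were lower in +Sm3CA than in Cont and 0 higher, beside 2.74% of all genes lower and 0.830% higher, and all 3 belong to the antagonists and modulators: Fst at 36.4, 43.7 and 26.0 normalised counts against 83.9, 103 and 78.2 (-1.29 ± 0.25, adjusted p = 0.00105), Fstl1 at 235, 204 and 128 against 243, 589 and 578 (-1.30 ± 0.24, adjusted p = 0.00081), and Bmp1 at 9.81, 17.5 and 22.1 against 27.2, 57.3 and 32.0 (-1.20 ± 0.35, adjusted p = 0.0459). The calls of Fst and Fstl1 held in 6 of 6 fits that left out a library, while that of Bmp1 was lost in 5 of 6 (adjusted p from 0.0619 to 0.353) and by DESeq2 (adjusted p = 0.0832). None of these 3, named because they were called, overlapped, and 11.9% of all genes tested lay wholly below Cont on this day. Fstl1 in Cont replicate 1 was near +Sm3CA, the same library that was low in fibroblast markers. On days 3, 6 and 8, 0 of the 24 were called in +Sm3CA against Cont, with 1 (Bmp1), 0 and 6 at an unadjusted p under 0.05 and 0 by DESeq2 on each day. Of all genes, 0.0195% were called on day 3 and 0.00977% on day 6, and on day 8, 0.654% were lower and 0.381% higher. An unadjusted p under 0.05 was found for 523, 426 and 1559 of all 10237 genes on days 3, 6 and 8.

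**Figure D4:**
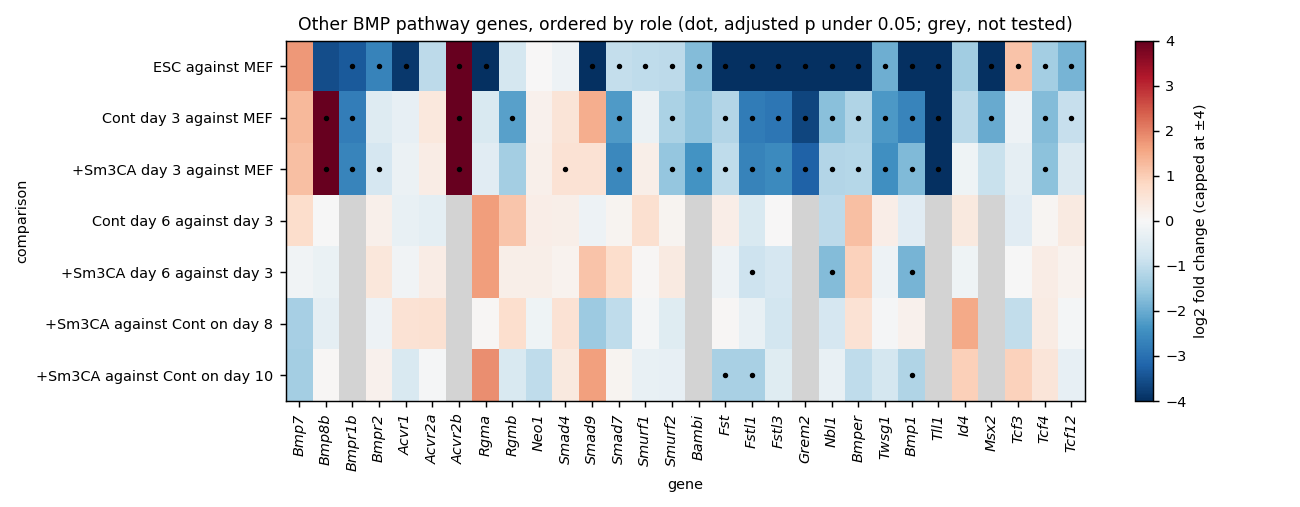
Log2 fold changes (colour, capped at ±4) of the 30 tested genes of the wider list (x axis, in order of role from ligands to E proteins) in 7 comparisons (y axis); dots mark an adjusted p under 0.05 and grey cells were under the filter. Secreted antagonists and modulators (Fst to Tll1) are dotted blue in all of the top 3 rows, and values of genes with 0 reads in a group, such as Acvr2b in MEFs, are fitted and have no fixed size.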

How the data were processed

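RNA of cell pools was sequenced with STRT, and the authors deposited raw read counts per gene for 84 wells, without a label on strand. The submitters' processing notes name Bowtie 0.12.9, DESeq2 1.6.3 and mm10, and the order of steps is not given in the sources used here. Wells of a replicate were summed into 30 libraries (10 groups, n = 3, identified from the labels). Size factors for levels came from DESeq2 1.42.0. The tests were edgeR 4.0.16 quasi-likelihood fits on TMM-scaled counts after filterByExpr, with the 24 reprogramming libraries for steps and for +Sm3CA against Cont (10237 genes) and all 30 for MEFs and ESCs (10979 genes), and genes were called at an adjusted p under 0.05 (Benjamini-Hochberg). Fold changes are on the TMM scale and can differ slightly from ratios of levels, and intervals are the estimate ± 1.96 SE. On simulated data for +Sm3CA against Cont on day 10, 157 of 196 genes changed 4-fold, of 10048 tested, were recovered, with 2 false calls. Smaller changes, such as those of Id1 and Id3 on that day, were not simulated. Intervals on pooled reads are exact binomial and cover counting error only, with each read taken as an independent count.

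All 9 genes are named. From the wider list the text names at most 3 genes per direction and comparison, those with the largest change and a mean of at least 20 normalised counts, and members of small counts. The genes and lists were chosen with earlier results of these data known. Pairing of replicates over days comes from the series' design text. Same-numbered libraries on consecutive days of a series deviated from their group means with correlations from -0.08 to 0.13. Alternatives were DESeq2 size factors, no filter on low counts, another set of libraries in the fit, a replicate block, DESeq2's Wald test and leaving out each library. Levels were also rescaled by TMM and from single wells.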

Additional observations from a re-analysis of the deposited data

Results flagged for a closer look

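Of the 24 tested genes of the wider list, 3 differed between the series in their change from day 3 to day 10, by the interaction term of the edgeR fit (Benjamini-Hochberg adjusted over 10237 genes). The term was negative for all 3, beside 0.899% of all genes called lower and 0.107% higher. For Fst the change in +Sm3CA minus that in Cont was -1.44 ± 0.33 on the log2 scale (adjusted p = 0.0203), for Fstl1 -1.42 ± 0.34 (adjusted p = 0.0257) and for Bmp1 -2.09 ± 0.48 (adjusted p = 0.0212). Mean levels on day 3 were 78.7 normalised counts of Fst in Cont and 88.6 in +Sm3CA, 273 and 297 of Fstl1, and 20.3 and 37.8 of Bmp1. Leaving out 1 library ended the call in 4 of 12 fits for Fst, 7 of 12 for Fstl1 and 6 of 12 for Bmp1, and with all 30 libraries in the fit the adjusted p was 0.0791, 0.0588 and 0.0598. None of the 9 genes passed that test. With 3 libraries in each group, no search for single outlying libraries was made.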

How the results depend on the processing

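Every called log2 fold change of the 9 genes kept its sign under all alternatives, and 317 of 340 such values kept their call. The counts of genes called moved more. Without the filter on low counts, 265 genes passed from day 6 to 8 and 374 from day 8 to 10 in Cont, and 11, 10 and 264 in +Sm3CA against Cont on days 3, 6 and 8 and 198 for the change from day 3 to day 10; of the 9 genes, 1 then passed from day 8 to 10 in each series, 2 on day 8 and 3 on day 10. With all 30 libraries in the fit the counts were 540, 107 and 138 for the Cont steps, 313 and 225 for the last +Sm3CA steps, 32 and 224 on days 8 and 10 and 42 for the change, and of the 9 genes 0 passed on days 8 and 10. With only the 6 libraries compared, 3485 and 3004 genes passed in ESCs against Cont and +Sm3CA on day 10, with 3 of the 9 genes against Cont. DESeq2 size factors raised the 9 genes' count from day 8 to 10 in +Sm3CA to 1. The replicate block raised it to 1 in each series (Id1), and for Smad1 in ESCs against Cont it gave an adjusted p of 0.0558, where numbers mark no pairs; it moved no other call of the 9 genes. Same-numbered Cont and +Sm3CA libraries deviated with correlations from -0.12 to 0.08.

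Leaving out 1 library at a time gave 529 to 772, 61 to 155 and 104 to 294 genes for the Cont steps, 1175 to 1850, 163 to 1062 and 225 to 684 for the +Sm3CA steps, 0 to 1, 21 to 523 and 176 to 450 in +Sm3CA against Cont on days 6, 8 and 10, and 27 to 192 for the change. Of the 9 genes it left 0 to 2 on day 8, 0 to 2 on day 10, 0 to 1 for the change, 0 to 2 from day 8 to 10 in Cont, 0 to 1 in the last 2 steps of +Sm3CA, and 1 to 2 in ESCs against +Sm3CA. With no library left out the counts were 934, 173 and 246 for the Cont steps and 1903, 684 and 497 for the +Sm3CA steps. They were 1, 106 and 366 in +Sm3CA against Cont on days 6, 8 and 10, and 103 for the change. Some ranges lay wholly below these counts and others reached above them, and the causes were not tested. Under TMM the mean of Smad5 in Cont on day 10 was 43.0 in place of 43.9, and the other 179 rescaled means moved by less than 1 SD. Depth limits Smad6, Bmp4 and Grem1, which had 0 to 22 reads per library outside MEFs and ESCs.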
